A study of Homo sapiens with 18 samples.

Results

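ISG15, a ubiquitin-like modifier, was examined together with the enzymes that attach it to proteins and remove it: the activating enzyme UBA7, the conjugating enzyme UBE2L6, the ligases HERC5 and HERC6 and the protease USP18. These 6 genes were chosen by name, with earlier results of these data known. Each was found once in every table, among 58735 rows in the RBCK1 and ANKRD35 tables and 29928 in the MITD1 table. All 6 passed the filter on low values in each of the 3 comparisons. After knockdown of RBCK1 the RNA of all 6 fell, to between 5.28% and 27.8% of its control. In that comparison 49.1% of all genes tested were called, 24.9% as lower. Its control held the 6 genes at 2.43 to 14.3 times their levels in the other controls, which were normalized separately. After knockdown of ANKRD35 only ISG15 passed the test, where 36.3% of all genes were called, and that call depended on which libraries and filter were used. In the siMITD1 libraries ISG15, HERC5 and USP18 fell to between 60.0% and 69.2% of control and UBE2L6 rose slightly, a share of 4 in 6 beside 65.6% of all genes called. The UBE2L6 call there also depended on which libraries and filter were used.

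ISG15 is joined through its C-terminus to lysines of other proteins by a relay that resembles ubiquitination: UBA7 activates it, UBE2L6 carries it, and a HERC ligase passes it on. HERC5 is the main ligase for ISG15 in human cells, whereas HERC6 is known for that role in the mouse. USP18 cleaves ISG15 from its targets and also binds the type I interferon receptor subunit IFNAR2, where it damps signalling. The genes for all these proteins are classical targets of type I interferon, which acts through the transcription factor ISGF3, which contains STAT2 and IRF9, at interferon-stimulated response elements in promoters.

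RNA was sequenced from 786-O, a human clear cell kidney cancer line in which the VHL tumour suppressor is not functional. There were 3 libraries in each of 6 groups: shRBCK1 and its control shcontrol, siANKRD35 and its control sicontrol_for_siANKRD35, siMITD1 and its control sicontrol_for_siMITD1. The cells were grown in RPMI-1640 with serum, and the labels give no interferon or drug treatment, no time after knockdown and no clone. The columns for the ANKRD35 knockdown name shRNA where the titles name siRNA, so the reagent there is uncertain. RBCK1 encodes HOIL-1, a subunit of the complex that builds linear ubiquitin chains; MITD1 is a protein of cytokinesis.

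Values are deposited FPKM, that is, fragments per kilobase of a gene, adjusted for the size of the library. Each knockdown came with its control in a table of its own, normalized separately, so each test was made within a table. Changes are given as log2(FPKM + 1) in the knockdown minus that in the control, and the added 1 shrinks the changes of weakly expressed genes. They were tested with limma and adjusted by Benjamini-Hochberg over all genes tested, and "fell", "rose" and "called" mean an adjusted p under 0.05. Reads recovered from the values ran from 16346478 to 18648246 per library for RBCK1, from 17502646 to 19034974 for ANKRD35 and from 14443655 to 15780394 for MITD1. The targeted RNA was lower in each knockdown: RBCK1 was at 31.9 FPKM in shRBCK1 and 480.3 FPKM in shcontrol, ANKRD35 at 0.0111 FPKM in siANKRD35 and 727 FPKM in its control, and MITD1 at 2.71 FPKM in siMITD1 and 7.47 FPKM in its control. RBCK1 in shcontrol was far above its level in the other controls, 70.8 FPKM in sicontrol_for_siANKRD35 and 65.5 FPKM in sicontrol_for_siMITD1, and ANKRD35 was at most 0.0392 FPKM in every library outside its own table. The siANKRD35 mean of 0.0111 FPKM was thus no higher than the highest value outside that table, 0.0392 FPKM. The labels do not say whether these targets were overexpressed in the shcontrol and sicontrol_for_siANKRD35 cells. Whether a target was raised in the control or lowered in the knockdown was not tested, and every change in these comparisons is relative to such a control. The siANKRD35 replicate 2 library stood apart, with Pearson's r of 0.970 and 0.979 across genes to the other siANKRD35 libraries, whereas pairs of their controls were at 0.992 or more. Of 6 markers of 786-O identity, 5 were at 1 FPKM or more in every group. In shRBCK1 and in shcontrol the remaining marker, with a mean under 1 FPKM, was NDUFA4L2. Summed markers of blood cells were at 0.962 to 5.06 FPKM, of fibroblasts at 0.0840 to 4.65 FPKM and of endothelium at 0.0145 to 0.331 FPKM. Of the blood markers CD3E and HBB were at 0 in every library; LAPTM5 was at 3.26 FPKM in shRBCK1 and 2.19 FPKM in shcontrol (log2 change 0.42) and at 1.31 FPKM in siMITD1 and 4.31 FPKM in its control (−1.20), both called. The fibroblast marker LUM was at 1.95 FPKM in shRBCK1 and 1.47 FPKM in shcontrol (0.25, called), and the part of these markers in the results below was not tested. The labels do not tell whether replicates were grown separately; if they were not, the p-values reflect technical spread alone. In bulk RNA, a change in every cell and a change in the share of cells that express a gene cannot be told apart.

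All 6 genes fell in the shRBCK1 libraries, and in this comparison 49.1% of 12227 tested genes were called, 24.9% as lower and 24.1% as higher. The 6 changes had a median of −2.60, against 0.01 over all genes tested. ISG15, UBE2L6, HERC6, UBA7 and HERC5 fell together with USP18, the enzyme that undoes the modification. In each of the 6 genes all 3 shRBCK1 libraries lay below all 3 shcontrol libraries, which was so for 29.6% of the genes tested, while 29.4% lay wholly above. Every one of these calls was kept under each alternative processing and with each library left out in turn.

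ISG15 is encoded at chr1:1001138-1014540 of GRCh38 on the plus strand (ENSG00000187608). Its RNA measured 43.6, 47.4 and 45.9 FPKM in the shRBCK1 libraries, against 818, 770.0 and 769 FPKM in the shcontrol libraries. The shRBCK1 mean of 45.6 ± 1.90 FPKM was 5.81% of the shcontrol mean of 785.8 ± 28.0 FPKM (SD, n = 3 each), from 2319 reads in shRBCK1 and 37005 in shcontrol. With a log2 change of −4.08 (SE 0.042, limma adjusted p = 1.31e-09), ISG15 ranked 11 of 12227 from the lowest. ISG15 was the most abundant of the 6 per length in both groups. The gene shares exon bases with AL645608.3 on the opposite strand, which was at 0.835 FPKM in shRBCK1 and 0.512 FPKM in shcontrol. The counting strand was not given in the sources used here, but that level was small beside ISG15 in either group.

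Its promoter is shown because it holds the interferon element for which this gene is known. The 250 bases before the RefSeq start lie at chr1:1013247-1013496 of GRCh38.p14 on the plus strand, inside the longer gene span above. They are printed 5′ to 3′ with matches to the core of the response element in capitals, which was searched as GAAA, any 2 bases and GAAA again.
ISG15 promoter: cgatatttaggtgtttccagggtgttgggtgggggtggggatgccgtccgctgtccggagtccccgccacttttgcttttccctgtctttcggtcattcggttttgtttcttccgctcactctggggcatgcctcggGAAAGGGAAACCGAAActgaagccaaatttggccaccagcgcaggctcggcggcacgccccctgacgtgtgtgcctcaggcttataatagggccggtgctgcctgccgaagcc
The capitals hold 2 matches that overlap, from −113 to −104 and from −107 to −98 relative to the start, both on the strand of the gene. Searched on both strands, that motif occurred in 1061 of 35116 promoters of this length (3.02%).

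UBA7, at chr3:49805207-49813946 on the minus strand (ENSG00000182179), catalyses the first step and is dedicated to ISG15. It measured 3.84, 3.64 and 4.25 FPKM in the shRBCK1 libraries, against 19.6, 18.4 and 17.4 FPKM in the shcontrol libraries. With means of 3.91 ± 0.307 FPKM in shRBCK1 and 18.5 ± 1.08 FPKM in shcontrol, it was at 21.2% of control (log2 change −1.99, SE 0.061, limma adjusted p = 3.71e-07). The groups were several-fold apart, and the spread inside each was small beside that gap.

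UBE2L6, the conjugating enzyme of ISG15, lies at chr11:57551656-57568284 on the minus strand (ENSG00000156587). Its level was 17.5, 17.7 and 17.7 FPKM in the shRBCK1 libraries, against 133, 130.03 and 121 FPKM in the shcontrol libraries. The means of 17.6 ± 0.0903 FPKM in shRBCK1 and 128 ± 5.95 FPKM in shcontrol gave a log2 change of −2.79 (SE 0.039, limma adjusted p = 5.40e-09), or 13.8% of control. It was the second most abundant of the 6 after ISG15 in each group.

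HERC6 and HERC5 lie side by side on chromosome 4, both on the plus strand, HERC6 at chr4:88378739-88443111 (ENSG00000138642) and HERC5 at chr4:88457117-88506163 (ENSG00000138646), with 14005 bases between them. HERC5, the ribosome-associated ligase that modifies newly made proteins, measured 7.64, 6.83 and 7.14 FPKM in the shRBCK1 libraries, against 24.2, 25.9 and 27.7 FPKM in the shcontrol libraries. Its means were 7.203 ± 0.409 FPKM in shRBCK1 and 25.9 ± 1.72 FPKM in shcontrol, 27.8% of control (log2 change −1.71, SE 0.059, limma adjusted p = 6.59e-07), the smallest decrease of the 6. HERC6 measured 3.17, 3.24 and 3.36 FPKM in the shRBCK1 libraries, against 21.6, 21.3 and 21.7 FPKM in the shcontrol libraries. The means of 3.26 ± 0.0970 FPKM in shRBCK1 and 21.5 ± 0.239 FPKM in shcontrol gave 15.1% of control (log2 change −2.41, SE 0.038, limma adjusted p = 7.78e-09). The neighbours therefore stood at similar levels in shcontrol and at unequal levels in shRBCK1, where HERC6 was 45.3% ± 3.32 of HERC5, against 83.3% ± 5.50 in shcontrol (SD, n = 3 each).

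The promoters of this pair are shown to compare the same element in neighbouring genes. Both are the 250 bases before the RefSeq start in GRCh38.p14, plus strand, at chr4:88456869-88457118 for HERC5 and chr4:88378602-88378851 for HERC6, 5′ to 3′, with matches to the core in capitals.
HERC5 promoter: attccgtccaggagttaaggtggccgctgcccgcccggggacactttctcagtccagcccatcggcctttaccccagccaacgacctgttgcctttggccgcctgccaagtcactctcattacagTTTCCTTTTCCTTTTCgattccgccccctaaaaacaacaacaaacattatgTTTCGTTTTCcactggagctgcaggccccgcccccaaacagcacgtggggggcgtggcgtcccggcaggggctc
HERC6 promoter: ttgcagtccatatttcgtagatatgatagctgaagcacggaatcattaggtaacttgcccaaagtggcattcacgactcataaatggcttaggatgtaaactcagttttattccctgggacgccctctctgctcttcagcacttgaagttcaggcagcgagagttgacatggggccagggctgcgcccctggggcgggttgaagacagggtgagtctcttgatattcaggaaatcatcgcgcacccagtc
HERC5 held 3 matches, all on the strand opposite to the gene: an overlapping pair from −125 to −116 and from −119 to −110, and a separate match from −74 to −65. These letters were not in the HERC6 window, nor in the 2 UBE2L6 windows of the table. The HERC6 window runs past the gene start given above, and both UBE2L6 windows lie inside the gene span given above. Bases before those annotated starts were thus searched only in part for HERC6 and not at all for UBE2L6. A search for the gamma-activated site core TTCNNNGAA, found in 6.57% of promoters, gave no match in the 5 windows of these 4 genes. UBA7 and USP18 were not searched.

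USP18, the protease, lies at chr22:18149899-18177397 on the plus strand (ENSG00000184979). It measured 3.18, 3.53 and 2.68 FPKM in the shRBCK1 libraries, against 57.4, 59.8 and 60.7 FPKM in the shcontrol libraries. The means of 3.13 ± 0.425 FPKM in shRBCK1 and 59.3 ± 1.69 FPKM in shcontrol gave 5.28% of control (log2 change −3.87, SE 0.073, limma adjusted p = 2.13e-08), from 360 reads in shRBCK1 and 6315 in shcontrol. Ratios of the means put USP18 below ISG15, with the lowest percentage of control of the 6, while on the log2(FPKM + 1) scale ISG15 had the larger decrease. USP18 has a near-identical copy, USP41, whose reads the counting could have split with it, so its count is uncertain. USP41 held 3 reads over the shRBCK1 libraries and 6 over the shcontrol libraries, and no more than 2 reads in any group of the other tables.

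**Figure D1:**
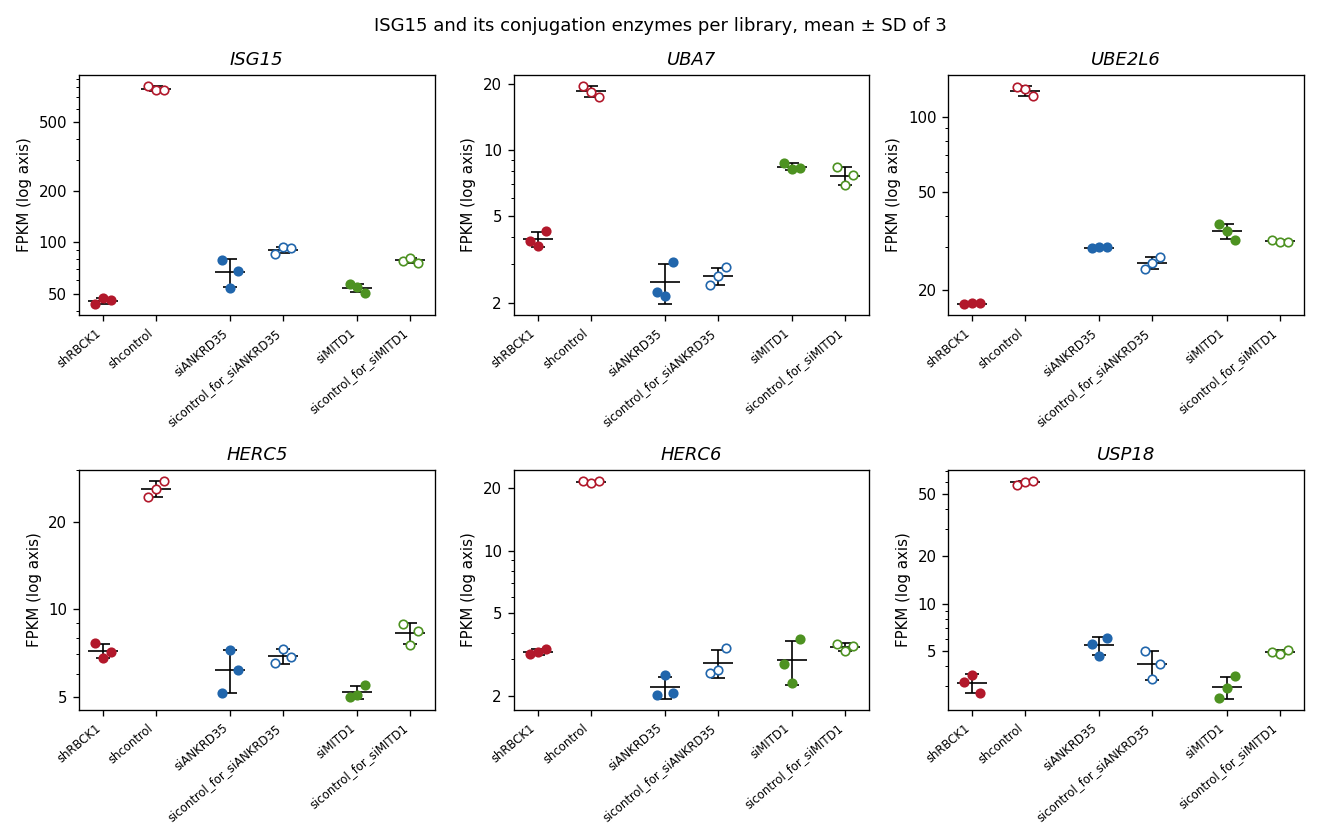
FPKM (log axis) of each of the 6 genes in each of the 18 libraries, with points for libraries and bars for the mean ± SD of 3; knockdown groups are filled and control groups open. The shcontrol libraries are highest in all 6 panels, and the shRBCK1 libraries sit near the groups of the other tables, which were normalized separately.

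Next to ISG15 on chromosome 1, HES4, a transcriptional repressor of the Notch pathway, was also lower, at 19.6 ± 2.22 FPKM in shRBCK1 and 61.3 ± 3.89 FPKM in shcontrol (log2 change −1.60, limma adjusted p = 6.36e-06). AGRN on the other side, which encodes the matrix proteoglycan agrin, changed by −0.40, with 60.0 FPKM in shRBCK1 and 79.7 FPKM in shcontrol.

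Genes of interferon signalling were lower in part. Of 6 tested genes for the interferon receptor and ISGF3, 4 fell, 1 rose and 1 was not called. STAT2 was at 3.86 ± 0.181 FPKM in shRBCK1 and 22.5 ± 0.626 FPKM in shcontrol (log2 change −2.27), and IRF9 at 0.558 ± 0.172 FPKM in shRBCK1 and 2.24 ± 0.313 FPKM in shcontrol (−1.06). The kinase JAK1 fell by 0.17 and the receptor subunit IFNAR1 rose by 0.18 on the log2 scale; under quantile normalization the JAK1 change was −0.10 with limma adjusted p = 0.0677. STAT2 and IRF9 were thus among the lower genes and the tested receptor subunit was not.

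Among 11 tested genes for reported ISG15 substrates, 7 fell, 1 rose and 3 were not called, with a median log2 change of −1.28. Interferon-induced genes were among those that fell: IFIT3 was at 20.4 ± 0.585 FPKM in shRBCK1 and 272 ± 8.26 FPKM in shcontrol, and IFIT1 at 7.58 ± 0.957 FPKM in shRBCK1 and 104 ± 1.75 FPKM in shcontrol. DDX58, the RNA sensor RIG-I, was at 7.23 ± 0.124 FPKM in shRBCK1 and 76.5 ± 0.447 FPKM in shcontrol. The exception was PCNA, the sliding clamp of DNA replication, which rose by 0.37, with 102 FPKM in shRBCK1 and 78.9 FPKM in shcontrol; exceptions to a list's direction are named here after their values were seen.

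Other tested ligases, relatives of the enzymes and other modifiers each changed by less than HERC5 (log2 change −1.71), the least changed of the 6 genes. TRIM25, an interferon-induced ligase that has also been reported to act on ISG15, fell to 16.0 ± 0.968 FPKM in shRBCK1, against 43.1 ± 0.375 FPKM in shcontrol (log2 change −1.38, limma adjusted p = 5.25e-07). USP13, a deubiquitinase reported to react with ISG15, rose by 0.45, and the remaining 5 tested genes of that list were not called. None of HERC1, HERC2, HERC3 and HERC4 was called by limma (0 of 4 at an unadjusted p under 0.05), and voom on recovered reads called 1 of the 4 as higher. Of 9 other activating enzymes for ubiquitin-like proteins, 6 rose and none fell, with a median of 0.12; NAE1 of the NEDD8 pathway had the largest change, at 18.6 ± 0.729 FPKM in shRBCK1 and 14.5 ± 0.193 FPKM in shcontrol (log2 change 0.34, limma adjusted p = 3.49e-04). UBA6 and UBA3 rose by 0.20 and 0.18 on the log2 scale. Of 9 other conjugating enzymes 2 rose and 3 fell, the largest change being that of UBE2E3 (0.41), and of 12 other modifiers and ubiquitin genes 3 rose and 3 fell. UBA7 was therefore the only gene called as lower of the 10 tested activating enzymes, and UBE2L6 changed by more than any of its 9 listed relatives.

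In the siANKRD35 libraries ISG15 alone of the 6 was called, as lower, where 36.3% of 11890 tested genes were called, 16.9% as lower and 19.4% as higher. The 6 changes had a median of −0.11, against 0.03 over all genes tested. ISG15 and HERC6 lay wholly below their controls, as did 24.1% of tested genes, and UBE2L6 lay wholly above, as did 28.1%. These values rest in part on the siANKRD35 replicate 2 library: without it 5 of the 6 were called, 3 lower and 2 higher, where 55.6% of 11732 tested genes were called.

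ISG15 measured 79.3, 54.3 and 68.2 FPKM in the siANKRD35 libraries, against 86.1, 93.5 and 92.2 FPKM in the sicontrol_for_siANKRD35 libraries. The means of 67.3 ± 12.5 FPKM in siANKRD35 and 90.6 ± 3.94 FPKM in its control gave a log2 change of −0.44 (SE 0.135, limma adjusted p = 0.0411), or 74.2% of control. The groups did not overlap, and replicate 2 was the lowest. The change was −0.30 (adjusted p = 0.0159) without siANKRD35 replicate 2 and −0.70 under quantile normalization. The call was lost with no filter on low values (adjusted p = 0.111), without siANKRD35 replicate 3 (adjusted p = 0.0917), and without replicate 1, 2 or 3 of the control (adjusted p = 0.0892, 0.125 and 0.120).

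The enzymes that attach ISG15 were not called. UBA7 was at 2.24, 2.14 and 3.08 FPKM in siANKRD35, against 2.41, 2.65 and 2.90 FPKM in its control (log2 change −0.07, limma adjusted p = 0.663). UBE2L6 was at 29.7, 29.7 and 29.8 FPKM in siANKRD35, against 24.4, 25.8 and 27.1 FPKM in its control (0.20, limma adjusted p = 0.0582). The UBA7 groups overlapped; those of UBE2L6 did not, and its change was 0.03 under quantile normalization (adjusted p = 0.805) and 0.02 after correction for length and GC content (adjusted p = 0.882). It passed with a filter of 5 FPKM (adjusted p = 0.0495) and without siANKRD35 replicate 2 (adjusted p = 0.0244).

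HERC5 was at 5.15, 7.26 and 6.20 FPKM in siANKRD35, against 6.53, 7.32 and 6.85 FPKM in its control (log2 change −0.14, limma adjusted p = 0.372). HERC6 was at 2.03, 2.51 and 2.06 FPKM in siANKRD35, against 2.58, 2.65 and 3.38 FPKM in its control (−0.27, limma adjusted p = 0.0988). With voom on recovered reads from all libraries HERC6 was called as lower (−0.47, limma adjusted p = 0.0359). Replicate 2 was the highest siANKRD35 library for both ligases, and without it both passed, HERC5 at −0.25 (adjusted p = 0.0497) and HERC6 at −0.34 (adjusted p = 0.0326). Without siANKRD35 replicate 1, the lowest for both, HERC5 was at −0.03 (adjusted p = 0.807) and HERC6 at −0.23 (adjusted p = 0.195). USP18 was at 5.57, 4.65 and 6.08 FPKM in siANKRD35, against 4.99, 3.29 and 4.12 FPKM in its control (0.33, limma adjusted p = 0.111). Its groups overlapped at 1 control library, and without siANKRD35 replicate 2 the change was 0.42 (adjusted p = 0.0389). It was 0.11 (adjusted p = 0.491) after correction for length and GC content and 0.21 (adjusted p = 0.316) without control replicate 2.

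Other genes of the response were lower in part after the ANKRD35 knockdown. Of 11 tested substrates 4 fell, or 6 without siANKRD35 replicate 2, and PCNA rose (0.51, though 0.10 and not called under quantile normalization), with IFIT3 at 22.8 ± 1.65 FPKM in siANKRD35 and 55.7 ± 1.33 FPKM in its control (log2 change −1.26) and IFIT1 at 6.72 ± 0.798 FPKM in siANKRD35 and 12.7 ± 0.324 FPKM in its control (−0.84). Of 5 genes tested for the receptor and ISGF3, 2 fell, JAK1 with a log2 change of −0.60. TRIM25 fell to 14.9 ± 1.25 FPKM in siANKRD35, against 24.2 ± 1.05 FPKM in its control (−0.67), the only call among 7 other ligases and proteases; 2 of the 7 were called as lower after correction for length and GC content and 4 without siANKRD35 replicate 2. The list of other modifiers and ubiquitin genes had 12 tested members, of which 9 rose and 1 fell; SUMO2 was at 88.3 ± 6.12 FPKM in siANKRD35 and 48.2 ± 1.34 FPKM in its control. The list's median was 0.38, and it depended on the scaling: under quantile normalization 2 rose and 1 fell. Of UBE2L6's 9 relatives 4 rose and none fell, UBE2L3, its closest relative, by 0.53. Without siANKRD35 replicate 2, 6 of these relatives were called as higher and 1 as lower, UBE2D1 (−0.23, adjusted p = 0.0474), and after correction for length and GC content 5 were higher and 1 lower. Of 9 other activating enzymes 3 rose and none fell, UBA3 by 0.63. After that correction 5 were higher, and under quantile normalization 2 were higher and 1 was lower. HERC2 fell (−0.41) and HERC4 was not called, whereas after correction for length and GC content HERC2 changed by −0.06 and was not called and HERC4 was called as higher (0.39). In this comparison changes ran with gene length (Spearman's rho −0.41 across genes, which are not independent replicates), whereas rho was 0.03 for RBCK1 and 0.09 for MITD1.

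In the siMITD1 libraries ISG15, HERC5 and USP18 fell and UBE2L6 rose slightly, where 65.6% of 10415 tested genes were called, 35.6% as lower and 30% as higher. With 4 of 6 called, the share was close to that of all genes tested. The median of the 6 changes was −0.35, against −0.03 over all genes. ISG15, HERC5 and USP18 lay wholly below their controls, as did 37.9% of tested genes, and UBE2L6 lay wholly above, as did 32.5%.

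ISG15 measured 57.2, 54.6 and 51.0 FPKM in the siMITD1 libraries, against 78.0, 81.4 and 76.2 FPKM in the sicontrol_for_siMITD1 libraries. The means of 54.3 ± 3.09 FPKM in siMITD1 and 78.5 ± 2.63 FPKM in its control gave 69.2% of control (log2 change −0.53, SE 0.044, limma adjusted p = 1.38e-05). All 3 siMITD1 libraries were below the lowest control, and the call was kept under every alternative.

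UBA7 was at 8.69, 8.19 and 8.23 FPKM in siMITD1, against 8.32, 6.86 and 7.66 FPKM in its control (log2 change 0.12, limma adjusted p = 0.121). Its groups overlapped; the change passed at 0.23 (adjusted p = 0.0134) after correction for length and GC content and at 0.18 (adjusted p = 0.0318) without control replicate 1, and it was 0.06 (adjusted p = 0.377) without control replicate 2. UBE2L6 was at 37.0, 34.8 and 32.0 FPKM in siMITD1, against 31.9, 31.4 and 31.2 FPKM in its control, with means of 34.6 ± 2.52 FPKM in siMITD1 and 31.5 ± 0.344 FPKM in its control (0.13, SE 0.049, limma adjusted p = 0.0454). Its lowest siMITD1 library barely cleared the highest control. The call was lost with no filter (adjusted p = 0.104), without siMITD1 replicate 1 (0.08, adjusted p = 0.138) or 2 (adjusted p = 0.0981), and without replicate 1, 2 or 3 of the control (adjusted p = 0.0726, 0.0902 and 0.105).

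HERC5 measured 4.98, 5.09 and 5.48 FPKM in siMITD1, against 8.88, 7.52 and 8.40 FPKM in its control, 62.7% of control (log2 change −0.58, SE 0.064, limma adjusted p = 6.59e-05). HERC6 was at 2.85, 2.31 and 3.73 FPKM in siMITD1, against 3.54, 3.28 and 3.49 FPKM in its control (−0.18, limma adjusted p = 0.208). The HERC5 groups were well apart, while replicate 3 of siMITD1 was above all HERC6 controls; without it HERC6 changed by −0.31 (adjusted p = 0.0120). Without siMITD1 replicate 2, the lowest, the change was −0.06 (adjusted p = 0.633). USP18 measured 2.49, 2.90 and 3.44 FPKM in siMITD1, against 4.90, 4.76 and 5.06 FPKM in its control, 60.0% of control (−0.59, SE 0.085, limma adjusted p = 3.29e-04), from 288 reads in siMITD1 and 458 in its control. Even the highest USP18 library of siMITD1 was below the lowest control.

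**Figure D2:**
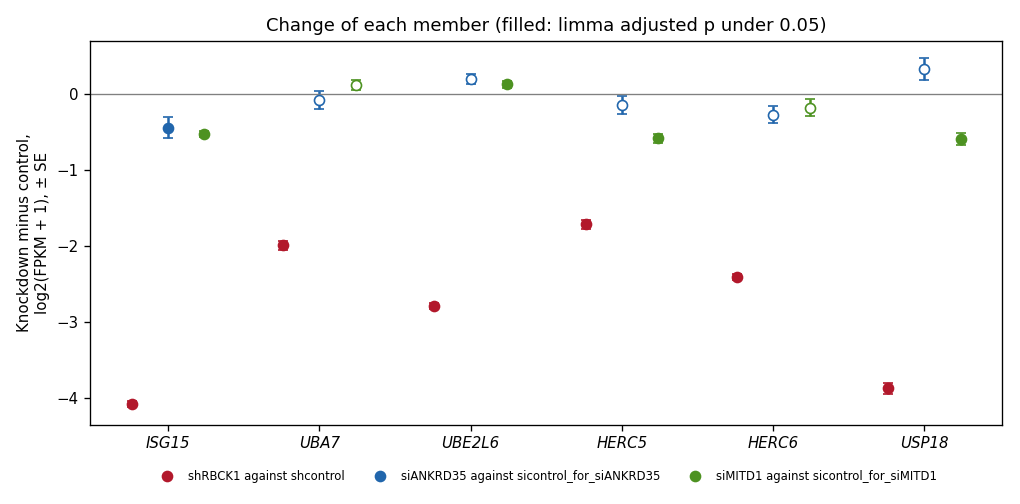
Change of each gene in log2(FPKM + 1), knockdown minus control, ± SE, in the 3 comparisons; filled points had a limma adjusted p under 0.05. The shRBCK1 changes run from −4.08 to −1.71, while those of siANKRD35 and siMITD1 lie between −0.59 and 0.33.

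Other genes of the response changed in both directions after the MITD1 knockdown. Of 5 genes tested for the receptor and ISGF3, 1 fell and 2 rose, JAK1 by 0.24 and IFNAR1 by 0.15 on the log2 scale. Of 9 tested substrates 6 fell and 3 rose; IFIT1 was at 5.30 ± 0.0744 FPKM in siMITD1 and 9.28 ± 0.159 FPKM in its control (log2 change −0.71), and PCNA changed by −0.48. The autophagy gene BECN1 was among those that rose (0.30). Of 8 other ligases and proteases 3 fell and 1 rose, and TRIM25 was not called (−0.08, limma adjusted p = 0.167). SUMO3, another small modifier, had the largest change among 12 other modifiers and ubiquitin genes, at 28.7 ± 0.887 FPKM in siMITD1 and 82.5 ± 2.09 FPKM in its control (−1.49), while UFM1 rose (0.66); in all, 5 fell and 3 rose. UBE2L3 fell by 0.51 and UBE2L6 rose by 0.13, and of the 9 relatives 6 fell and 2 rose; after correction for length and GC content 3 fell and 2 rose. HERC1 rose (0.54), 1 of 3 tested in its list. Of 9 other activating enzymes 3 fell and none rose, the largest change being −0.20 (UBA6).

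**Figure D3:**
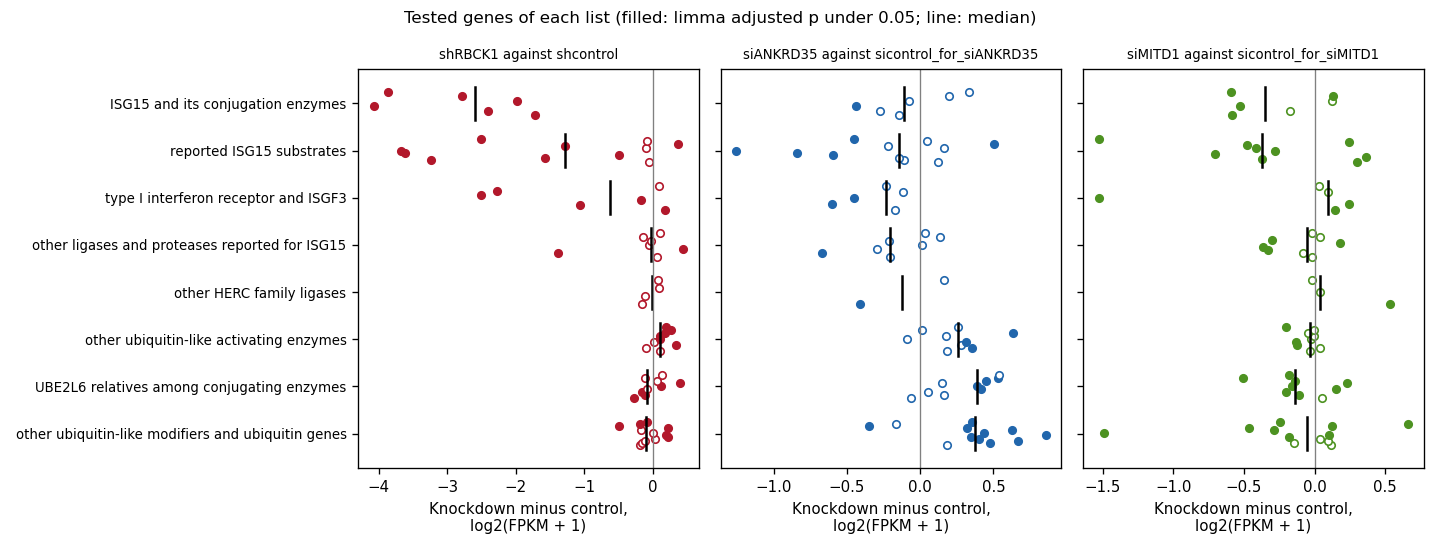
Changes in log2(FPKM + 1), knockdown minus control, of the tested genes of each list in the 3 comparisons; filled points had a limma adjusted p under 0.05 and the line is the median. Axes differ between the panels. In the shRBCK1 panel the top row lies at a median of −2.60 and the reported substrates at −1.28, while other activating enzymes lie at 0.12.

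Set side by side, the 3 comparisons gave ISG15 changes of −4.08, −0.44 and −0.53 for shRBCK1, siANKRD35 and siMITD1, each called as lower. The siANKRD35 call for ISG15 held under some settings only. UBE2L6 changed by −2.79, 0.20 and 0.13, of which the first was called as lower, the siANKRD35 value was not called and the siMITD1 value was called as higher under some settings only. USP18 changed by −3.87, 0.33 and −0.59, and HERC5 by −1.71, −0.14 and −0.58. The differences between comparisons were not tested, because the tables were normalized separately.

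The relative amounts of the genes within a library also differed. UBE2L6 was 38.7% ± 1.48 of ISG15 in shRBCK1 and 16.3% ± 0.563 in shcontrol, 45.3% ± 8.79 in siANKRD35 and 28.4% ± 0.889 in its control, and 63.7% ± 1.03 in siMITD1 and 40.1% ± 1.36 in its control (SD, n = 3 each). In each pair the 3 knockdown libraries lay above the 3 controls. USP18 was 6.87% ± 0.881 of ISG15 in shRBCK1 and 7.56% ± 0.472 in shcontrol, with overlapping libraries, and 5.47% ± 1.198 in siMITD1 and 6.26% ± 0.393 in its control, also overlapping. In siANKRD35 it was 8.17% ± 1.001, against 4.59% ± 1.14 in its control, without overlap. ISG15 made up 56.5% ± 1.19 of the summed FPKM of the 6 in shRBCK1 and 75.6% ± 0.554 in shcontrol, 59.0% ± 5.00 in siANKRD35 and 68.2% ± 0.866 in its control, and 50.1% ± 0.838 in siMITD1 and 58.5% ± 1.49 in its control. UBA7 was 22.2% ± 1.68 of UBE2L6 in shRBCK1 and 14.4% ± 0.311 in shcontrol, 8.36% ± 1.73 in siANKRD35 and 10.3% ± 0.405 in its control, and 24.3% ± 1.28 in siMITD1 and 24.2% ± 2.14 in its control. HERC6 as a share of HERC5, given above for the RBCK1 pair, was 35.7% ± 3.23 in siANKRD35 and 41.7% ± 6.87 in its control, with overlapping libraries. In siMITD1 it was 56.9% ± 11.4, against 41.7% ± 1.85 in its control, without overlap and in the other direction from shRBCK1. No test was made on these ratios, whose numerator and denominator come from the same libraries as the changes above.

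**Figure D4:**
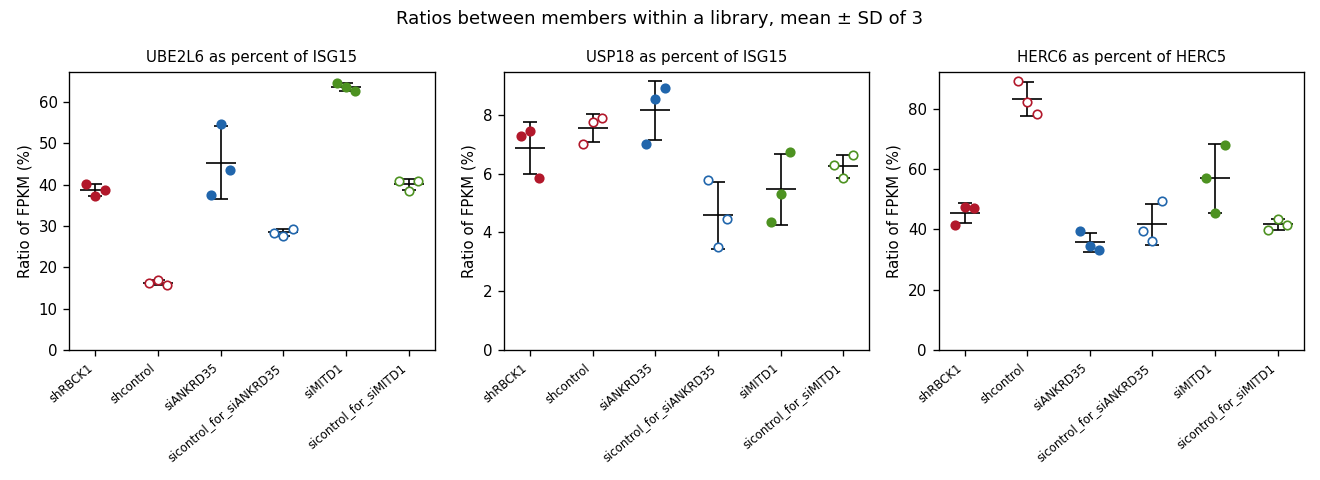
Ratios of FPKM within each library in percent, with points for libraries and bars for the mean ± SD of 3; knockdown groups are filled and stand left of their open controls. UBE2L6 relative to ISG15 is higher in every knockdown group than in its control, and HERC6 relative to HERC5 is 45.3% in shRBCK1 and 83.3% in shcontrol but 56.9% in siMITD1 and 41.7% in its control.

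Across the 6 groups shcontrol had the highest level of every one of the 6 genes, and these comparisons of level cross tables that were normalized separately. ISG15 in shcontrol was 8.67 times its level in sicontrol_for_siANKRD35 and 10.0 times that in sicontrol_for_siMITD1. For USP18 the factors were 14.3 and 12.1, for HERC6 7.50 and 6.27, for UBA7 6.97 and 2.43, for UBE2L6 4.97 and 4.07 and for HERC5 3.76 and 3.14. The shRBCK1 levels, in contrast, were 0.504 to 1.48 times those of sicontrol_for_siANKRD35 and 0.514 to 0.948 times those of sicontrol_for_siMITD1. The decrease in the RBCK1 comparison was thus measured from a control in which all 6 were higher than in the other controls, as RBCK1 was; whether the 2 are linked was not tested.

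Below shcontrol, ISG15 ran in the order sicontrol_for_siANKRD35, sicontrol_for_siMITD1, siANKRD35, siMITD1 and shRBCK1, where siANKRD35 overlapped with both its neighbours. UBE2L6 ran siMITD1, sicontrol_for_siMITD1, siANKRD35, sicontrol_for_siANKRD35 and shRBCK1, with no overlap between neighbours. For UBA7 siMITD1 and its control were next and overlapped, followed by shRBCK1, sicontrol_for_siANKRD35 and siANKRD35, of which the last pair overlapped. For HERC5 the 5 groups below shcontrol all overlapped with their neighbours in the order, as they did for USP18. For HERC6 the groups from sicontrol_for_siMITD1 down to sicontrol_for_siANKRD35 overlapped with their neighbours, and siANKRD35 lay below. The spread within a group was 0.197% to 24.2% of its mean over the 6 genes and 6 groups, widest for HERC6 in siMITD1.

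Over the 18 libraries, on log2(FPKM + 1) minus the mean of the control group of the same table, the genes most like ISG15 among 8287 symbols were PRKD2 (Pearson's r 0.996), AMOTL2 (0.995), TRIM22 (0.995), PARP9 (0.994) and LGALS3BP (0.994). PRKD2, a protein kinase D, was at 5.04 FPKM in shRBCK1 and 15.6 FPKM in shcontrol, 6.31 FPKM in siANKRD35 and 7.04 FPKM in its control, and 5.24 FPKM in siMITD1 and 6.37 FPKM in its control. PARP9 and TRIM22 are interferon-induced genes; TRIM22 was at 0.417 FPKM in shRBCK1 and 13.3 FPKM in shcontrol. Of the other 5, HERC6 was at 0.984, USP18 at 0.975, UBE2L6 and UBA7 at 0.974 and HERC5 at 0.953. The 18 points share tables and control groups, the shRBCK1 libraries lie far from the rest in ISG15, and no p is given.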

How the data were processed

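RNA-seq of 18 libraries of 786-O cells was analysed from 3 deposited tables of FPKM, which per the file headers hold one column per library. Per the labels' protocols total RNA was made into libraries with a directional kit. The submitters' processing notes name the build mm10, a mouse build; the RBCK1 table goes against it, since 58735 of 58735 identifiers have the start and end of GENCODE 29 on GRCh38. No source used here gives the aligner or the counter. Another 6 value columns of the ANKRD35 table name no sample of the series and were not used.

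FPKM times gene length over one step per library gave the reads, whole within 0.01 for 100% of values in the RBCK1 and ANKRD35 tables and for 91.6% of 18083 expressed genes of the MITD1 table, which lists no lengths; the length of ISG15 there was taken as 942 bases. Each comparison was fitted with limma 3.58.1 (R 4.3.3) on log2(FPKM + 1) of its 6 libraries, after dropping genes that reached 1 FPKM in fewer than 3 of them, two-sided, with Benjamini-Hochberg adjustment over all genes tested. On simulated data the step called 72%, 75% and 89% of genes changed 1.5-fold for shRBCK1, siANKRD35 and siMITD1. Of genes changed 3-fold it called 99%, 98% and 98%. The simulated spread was set alike for every group, whereas the chi-square per gene between siANKRD35 replicates 1 and 2 was 48.5. The simulation therefore does not speak to the siANKRD35 calls. Tables were joined with pandas 2.3.3 in Python 3.11.15.

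The members, lists and tests were chosen with earlier results of these data known. All 6 members are named, with up to 4 called genes of each list by size of change and the 5 genes most like ISG15; some genes of the lists that this rule names are not reported here. Alternatives were a pseudocount of 0.1, no filter, a filter of 5 FPKM, quantile and median-ratio scaling, correction for length and GC content, the replicate number as a block, voom on the recovered reads, and each library left out in turn. Counts of the other lists under these scalings and without siANKRD35 replicate 2 were added after the data were seen. No pair of libraries was identical, and the chi-square per gene between replicates was 2.12 or more, so all were kept. Promoters are from RefSeq, GRCh38.p14, which held windows for 4 of the 6 genes.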

Additional observations from a re-analysis of the deposited data

Results flagged for a closer look

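UBE2L6 lay on opposite sides of its control in different knockdowns. Its log2 change, knockdown minus control, was −2.79 in shRBCK1 against shcontrol, with every shRBCK1 library below every shcontrol library, and 0.20 in siANKRD35 against its control, with every siANKRD35 library above. In siMITD1 against its control it was 0.13, again with every knockdown library above, beside the same −2.79 for shRBCK1. The difference between these changes was not tested, since the tables were normalized separately, and the changes in siANKRD35 and siMITD1 passed the limma threshold under some settings only. The siANKRD35 change did not pass as reported (adjusted p = 0.0582) and was 0.03 under quantile normalization and 0.02 after correction for length and GC content; the siMITD1 call was lost with no filter and without 5 of the 6 libraries in turn.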

How the results depend on the processing

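Of 247 values of single members under alternatives, 227 kept their direction and side of the threshold, 9 passed it newly, 11 no longer passed, and none reversed. For shRBCK1 all 6 members were called under every alternative. For siANKRD35 the number of members called, 1 as reported, was 0 with no filter, 2 with a filter of 5 FPKM, 2 with voom on recovered reads, and 0 to 5 with a library left out; the number of genes called was 4312 as reported and 2157 to 6518 with a library left out, the highest without siANKRD35 replicate 2. Voom called 4192 genes as higher and 2669 as lower for shRBCK1, against 2951 and 3049 as reported, and 1724 and 2755 for siANKRD35, against 2305 and 2007; with the 5 FPKM filter siANKRD35 gave 2044 and 1164. The cause was not tested.

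Deviations of same-numbered libraries correlated at −0.09 to 0.18, against −0.22 to 0.14 for libraries of different numbers. In each comparison the highest same-number value was above the highest for different numbers. These were 0.03 against 0.02 for shRBCK1, 0.18 against 0.14 for siANKRD35 and 0.10 against 0.04 for siMITD1. The correlations are weak and do not settle whether the numbers pair the libraries. With the replicate block 5347, 4139 and 6859 genes and 6, 1 and 4 members were called for shRBCK1, siANKRD35 and siMITD1, and the block changed no member's call. Depth limits USP18 most, with 288 reads over the 3 siMITD1 libraries. Reads of the MITD1 table are less certain, and each comparison holds 3 libraries a side.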
